A study of Homo sapiens with 10 samples.

Results

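NF-kappaB is a family of dimeric transcription factors, and the 38 genes described here are its subunits, its inhibitors and a selection of its well-known target genes. They were chosen by gene symbol alone, as rows of the FPKM (fragments per kilobase of transcript, scaled to the mapped fragments of a sample) tables, and all 38 are among the 23426 gene symbols that every sample lists. By role they are the 5 DNA-binding subunits, 5 proteins of the IkappaB family, 8 genes for feedback and survival proteins, 8 chemokines, 7 cytokines and growth factors, and 5 genes of the cell surface, the matrix and prostaglandin synthesis. In resting cells, IkappaB proteins hold the dimers in the cytoplasm. Signals from receptors for tumour necrosis factor, interleukins or microbial products activate a kinase complex that marks IkappaB for destruction, and the freed dimers of RELA and NFKB1 enter the nucleus. A slower branch runs through the kinase MAP3K14 and the processing of the NFKB2 precursor, whose product pairs with RELB. The target genes include the pathway's own brakes, such as NFKBIA and TNFAIP3, so that their RNA is widely used as a readout of the pathway. In breast cancer, NF-kappaB activity has mostly been described in tumours that lack the oestrogen receptor.

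The cells were MDA-MB-468 (MDAMB468 in the labels), an established basal-like line that lacks hormone receptors and HER2, and ZR75-1, an established luminal line. Each line received PKC412 (midostaurin), a staurosporine derivative that inhibits many kinases, or its solvent DMSO for 6 h, and the study asked how a sensitive basal-like line and a luminal line differ in their transcriptional response. The files analysed here hold 2 DMSO and 3 PKC412 samples per line, 10 in all, although the methods describe triplicates. The dose was 1 μM in the labels and methods and 500 nM in figure legends. With 1 line for each subtype, line and subtype cannot be told apart. No source used here says whether samples of a group came from separate cultures, so p-values measure only the spread between these samples.

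The lines carried the markers of their labels. Summed over 7 basal genes, FPKM was 2410 to 2671 in MDA-MB-468 and 19.8 to 26.0 in ZR75-1, although 1 of the 7, CDH3, was higher in ZR75-1 (mean 21.6 against 10.6 in DMSO). The sum over 6 luminal genes was 64.7 to 172 in MDA-MB-468 and 390.5 to 1150 in ZR75-1, and within MDA-MB-468 it was 64.7 to 93.5 in DMSO and 137 to 172 in PKC412, most of it XBP1. In ZR75-1 the luminal sum was 390.5 to 807 in DMSO and 886 to 1150 in PKC412. Of the blood cell markers, the means of PTPRC and CD3E were at most 0.0298 FPKM in any group. CD14 had a mean of 21.7 in DMSO and 12.9 in PKC412 in MDA-MB-468 and of 0.994 and 0.574 in ZR75-1, and CD68 had means of 11.5 and 14.4 in MDA-MB-468 and of 5.97 and 8.33 in ZR75-1. CSF1R had means of 2.08 and 1.98 in MDA-MB-468 and at most 0.00655 in ZR75-1. A list of stromal and vessel genes summed to 1.35 to 1.49 in DMSO and 2.24 to 2.57 in PKC412 in MDA-MB-468, and to 2.26 to 2.78 and 6.70 to 11.2 in ZR75-1, where COL1A1 made up most of it. The part of these lists in the results below was not tested. FPKM summed to between 599228 and 835069 per sample, and the number of reads behind them is unknown. A change in RNA per cell and a change in the share of cells that express a gene cannot be told apart in such samples.

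The short DNA element that NF-kappaB dimers bind lies close to the start of many of these genes. The RefSeq table of promoters (GRCh38.p14, 250 bases before to 50 after each start) had entries for 31 of the 38 genes, 46 windows in all, and none was found under these names for NFKBIE, RELB, CCL2, CCL5, CSF1, MMP9 and IER3. The core of a kappaB site, GGGA and TTCC separated by any 2 bases and searched on both strands, occurred in 1.61% of all 35116 promoters and in at least 1 promoter of 15 of the 31 genes (48.4%; 1.97% of all symbols). The looser kappaB consensus, which includes every match to this core, was found in 11.3% of promoters, and for 19 of the 31 genes (61.3%) against 13.3% of all symbols. The letters TGANTCA of AP-1, a different factor, occurred in 7.71% of promoters, and for 3 of the 31 genes (9.68%) against 9.37% of all symbols. The stretches shown are those of the genes whose change passed the test in at least 1 line or that belong to the same chemokine cluster, and of NFKBIB, which passed in neither line. Capitals mark the matched bases, those of an overlapping match on the other strand included, and each sequence is written 5′ to 3′ on the gene's own strand.
NFKBIA: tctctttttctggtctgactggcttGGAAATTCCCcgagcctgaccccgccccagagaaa
NFKB2: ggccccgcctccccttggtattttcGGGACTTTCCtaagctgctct
TNFAIP3: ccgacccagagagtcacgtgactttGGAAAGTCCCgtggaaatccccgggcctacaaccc
CXCL1: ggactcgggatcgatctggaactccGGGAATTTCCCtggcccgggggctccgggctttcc
CXCL2: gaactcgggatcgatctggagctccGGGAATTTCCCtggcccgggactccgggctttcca
CXCL3: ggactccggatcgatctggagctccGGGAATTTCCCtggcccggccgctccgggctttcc
CD83: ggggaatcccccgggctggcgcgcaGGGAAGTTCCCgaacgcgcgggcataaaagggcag
IL6: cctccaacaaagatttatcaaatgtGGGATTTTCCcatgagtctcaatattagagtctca
NFKBIB: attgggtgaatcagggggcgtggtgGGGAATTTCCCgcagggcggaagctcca

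All 9 stretches lie upstream of the start of their gene. They are chr14:35404796-35404855 on the minus strand for NFKBIA, chr10:102395659-102395704 on the plus strand for NFKB2, chr6:137867167-137867226 (plus) for TNFAIP3, chr4:73869289-73869348 (plus) for CXCL1, chr4:74099239-74099298 (minus) for CXCL2, chr4:74038734-74038793 (minus) for CXCL3, chr6:14117696-14117755 (plus) for CD83, chr7:22727102-22727161 (plus) for IL6 and chr19:38899916-38899968 (plus) for NFKBIB. The matched letters begin 81 bases before the start in NFKBIA, 21 in NFKB2, 67 in TNFAIP3, 51 in CD83, 73 in IL6 and 28 in NFKBIB. In CXCL1, CXCL2 and CXCL3, which lie near each other on chromosome 4, the same letters stand 79, 78 and 79 bases before the start. A match describes the letters in the window and does not show that a factor binds there. Of the 15 genes with a match to the core, 5 passed the test in MDA-MB-468 cells and 4 in ZR75-1. Of the 13 tested genes with an entry and no match to the core, 3 and 0 did. Over all genes tested, the shares called higher with PKC412 were 0.691% for the first line and 0.747% for the second. BCL3, 1 of those 3, lacked the core but matched the looser consensus, as did BIRC3, CCL20 and SDC4, which did not pass. The difference between genes with and without the core was not tested.

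In MDA-MB-468 cells, 2 subunits of NF-kappaB, 2 IkappaB proteins and 5 target genes rose with PKC412. Differences were tested by a limma fit of 4 group means to log2(FPKM + 1), over the 16071 genes whose mean exceeded 0.1 FPKM in any group, and p-values were adjusted over all of them by the Benjamini-Hochberg method. Of the 38 genes, 35 passed this limit on low values; IL1A and IL1B did not, and PTGS2 was listed at 0 in every sample. In MDA-MB-468, 9 of the 35 (25.7%) were higher in PKC412 at an adjusted p under 0.05, and 0 were lower. Of all genes tested, 0.691% were called higher and 0.566% lower. The 9 were RELB, NFKB2, NFKBIA, BCL3, TNFAIP3, CXCL1, TNF, ICAM1 and CD83. At an unadjusted p under 0.05, 23 of the 35 (65.7%) were higher and 0 lower, against 11.1% and 5.25% of all genes. The median log2 fold change of the 35 genes was 0.67, against 0.11 for all genes tested. It was above 0 for 33 of the 35 (94.3%) and for 65% of all genes.

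In ZR75-1 cells fewer of these genes passed the test. The genes higher in PKC412 numbered 4 of 35 (11.4%), namely NFKB2, NFKBIA, CXCL2 and IL6, and 0 were lower, while 0.747% of all genes were called higher and 0.199% lower. At an unadjusted p under 0.05 the counts were 10 higher (28.6%) and 1 lower (2.86%), against 8.05% and 3.12% of all genes. The median log2 fold change was 0.21, against 0.07 for all genes, and 25 of the 35 genes (71.4%) lay above 0, a share near the 65.2% of all genes. NFKB2 and NFKBIA passed the test in both lines. Leaving out 1 of the 10 samples in turn moved the number called from 9 to between 3 and 12 in MDA-MB-468 and from 4 to between 1 and 4 in ZR75-1, and NFKB2, RELB and NFKBIA in MDA-MB-468 and NFKB2 in ZR75-1 were called each time.

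**Figure D1:**
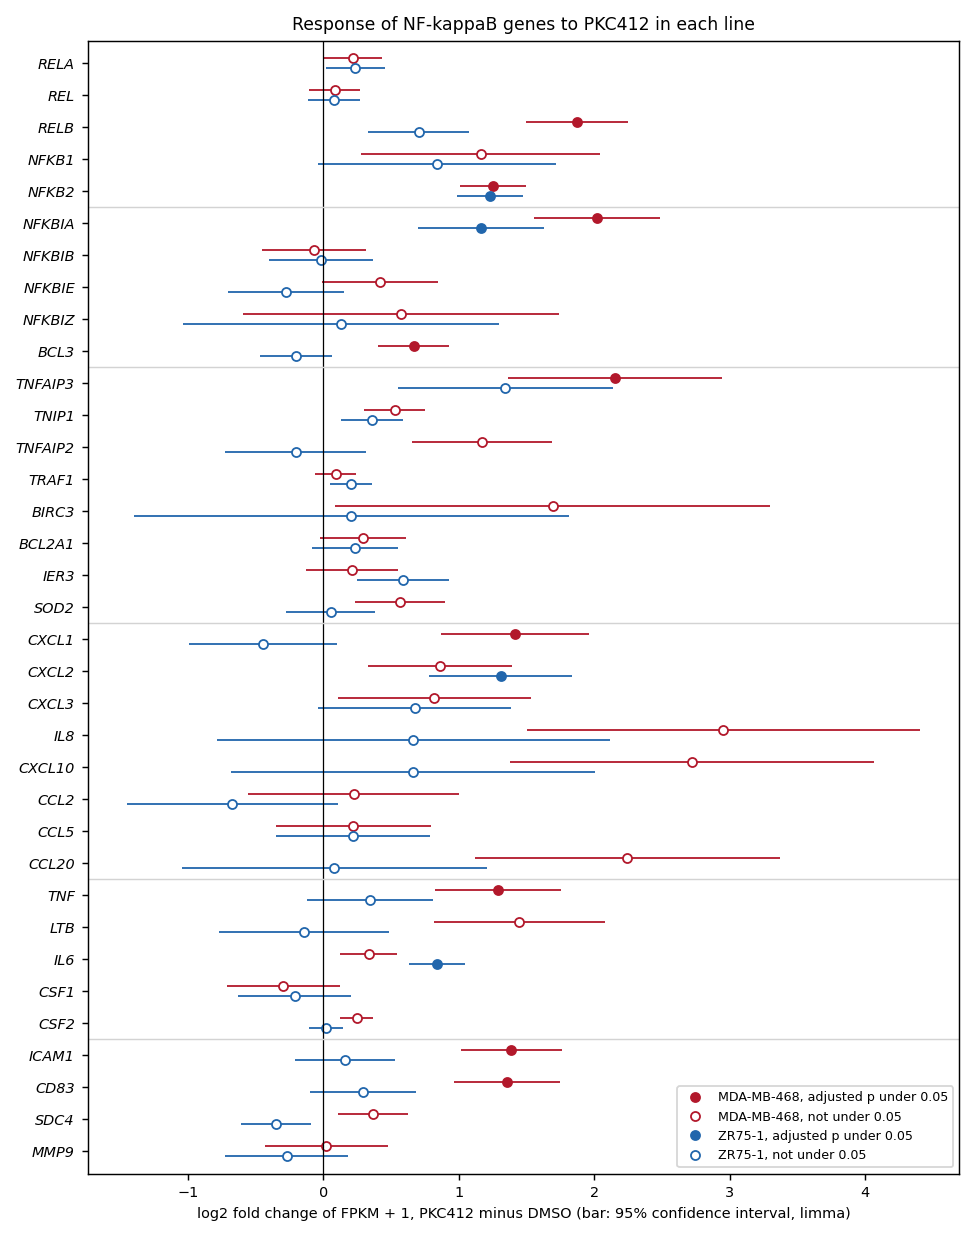
Log2 fold change of FPKM + 1 (PKC412 minus DMSO, horizontal axis) of the 35 tested NF-kappaB genes, grouped by role, in MDA-MB-468 (red) and ZR75-1 (blue), with 95% confidence intervals from limma; filled points have an adjusted p under 0.05. In MDA-MB-468, 9 points are filled and 33 lie above 0, and in ZR75-1, 4 are filled and 25 lie above 0.

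The size of change was also counted by whether the means of the treatments stood 3-fold apart, with no pseudocount and 1 of them above 0.1 FPKM. By this measure 15 of 35 genes (42.9%) were higher in MDA-MB-468 and 0 lower, where 6.14% of all genes were higher and 1.07% lower. In ZR75-1 the measure was met by 2 of 34 genes (5.88%), TNFAIP3 and IL6, against 3.15% of all genes higher and 0.932% lower. IL6 had a DMSO mean of 0.018 in ZR75-1 and counts there only because its mean with PKC412 exceeded 0.1. The 15 genes in MDA-MB-468 were 7 chemokines (CXCL1, CXCL2, CXCL3, IL8, CXCL10, CCL2 and CCL20), the cytokines TNF, LTB and IL6, the survival and feedback genes TNFAIP3, BIRC3 and BCL2A1, and RELB and NFKBIA. CCL2 was listed at 0 in both DMSO samples and counts only because its mean with PKC412 exceeded 0.1. The DMSO means of CXCL3 (0.038), TNF (0.052), IL6 (0.071) and BCL2A1 (0.093) were also below 0.1, so these count in the same way. All PKC412 samples lay above all DMSO samples for 31 of 35 genes (88.6%) in MDA-MB-468, against 39.6% of all genes, and for 11 of 35 (31.4%) in ZR75-1, against 14.8%. They lay below all DMSO samples for 1 gene, CSF1, in MDA-MB-468, and for BCL3 and SDC4 in ZR75-1; of all genes this held for 16.3% and 6.98%. When 1 was added to both means, 7 genes in MDA-MB-468 and 0 in ZR75-1 reached 3-fold.

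Of the 5 DNA-binding subunits, the 2 of the slower branch passed the test. RELB, the partner of processed NFKB2, had FPKM values of 10.0 and 9.09 in DMSO and 36.9, 38.4 and 37.5 in PKC412 in MDA-MB-468. Its log2 fold change was 1.87 (SE 0.16, adjusted p = 0.00266), and the PKC412 samples had a mean of 37.6 ± 0.760 (SD, n = 3). In ZR75-1, RELB had 29.8 and 21.7 in DMSO and 42.8, 48.3 and 35.9 in PKC412, again without overlap, and a log2 fold change of 0.70 (SE 0.16) that did not pass (adjusted p = 0.138). NFKB2 had FPKM values of 9.56 and 8.64 in DMSO and 23.9, 20.7 and 24.5 in PKC412 in MDA-MB-468. In ZR75-1 the same gene started far higher, at 49.4 and 50.9, and reached 113, 122 and 122. The log2 fold change of NFKB2 was 1.25 (SE 0.10, adjusted p = 0.00226) in MDA-MB-468 and 1.23 (SE 0.10, adjusted p = 0.00216) in ZR75-1. These responses differed by 0.02 with a 95% confidence interval from -0.32 to 0.36.

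RELA, which carries the strongest activation domain of the family, was at 41.6 and 42.2 FPKM in DMSO and 49.1, 49.7 and 47.7 in PKC412 in MDA-MB-468. The values in ZR75-1 were 20.9 and 20.2 in DMSO and 22.3, 24.99 and 25.9 in PKC412. The PKC412 samples lay above the DMSO samples in both lines, but the log2 fold changes of 0.22 and 0.23 (SE 0.09 each) did not pass (adjusted p = 0.305 and 0.414). NFKB1, the usual partner of RELA, had 2.98 and 4.02 in DMSO and 10.7, 6.97 and 9.65 in PKC412 in MDA-MB-468, with a log2 fold change of 1.16 (SE 0.38, adjusted p = 0.232). ZR75-1 cells had 3.48 and 7.44 of NFKB1 in DMSO and 9.78, 6.45 and 15.5 in PKC412, so that the groups overlapped, and a log2 fold change of 0.84 (SE 0.38, adjusted p = 0.465). REL, the subunit best known from lymphocytes, was between 0.0861 and 0.336 FPKM in all 10 samples, and its log2 fold change was 0.08 in each line. About 50.6% of the 50-base windows of the REL transcript also occur in another annotated gene, so its FPKM is uncertain.

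The classical inhibitor changed in both lines, while its close relatives did not pass. NFKBIA, which encodes IkappaB-alpha and is itself an NF-kappaB target, had 10.4 and 12.8 FPKM in DMSO and 53.6, 45.1 and 51.1 in PKC412 in MDA-MB-468. The ZR75-1 samples had 52.5 and 84.3 in DMSO and 143, 170.1 and 140.5 in PKC412. No PKC412 sample overlapped the DMSO samples of its line, and the DMSO level of ZR75-1 was close to the PKC412 level of MDA-MB-468. The log2 fold change was 2.02 (SE 0.20, adjusted p = 0.00423) in MDA-MB-468 and 1.17 (SE 0.20, adjusted p = 0.0462) in ZR75-1. The call in ZR75-1 was kept in 1 of the 10 fits that left out a sample, the one without the second DMSO sample of ZR75-1, and the adjusted p was 0.198 without the first.

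NFKBIB, which encodes IkappaB-beta, had 74.9 and 59.0 FPKM in DMSO and 58.6, 67.7 and 63.8 in PKC412 in MDA-MB-468. Values of 34.9 and 29.6 in DMSO and 35.7, 33.8 and 26.3 in PKC412 were found in ZR75-1. The groups overlapped in both lines, and the 95% confidence interval of the log2 fold change ran from -0.45 to 0.31 in MDA-MB-468 and from -0.40 to 0.36 in ZR75-1. NFKBIE, which encodes IkappaB-epsilon, had 12.6 and 10.4 in DMSO and 14.01, 17.9 and 15.4 in PKC412 in MDA-MB-468, with a log2 fold change of 0.42 (SE 0.19, adjusted p = 0.308). In ZR75-1, NFKBIE had 15.3 and 11.7 in DMSO and 11.0, 12.8 and 9.08 in PKC412, an overlap, with a log2 fold change of -0.28 (SE 0.19, adjusted p = 0.638).

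BCL3, an atypical nuclear IkappaB that acts as a co-activator, rose in MDA-MB-468 and did not pass in ZR75-1. In MDA-MB-468 it had 33.8 and 30.3 FPKM in DMSO and 48.1, 51.1 and 54.8 in PKC412, and its log2 fold change of 0.67 (SE 0.12) passed at an adjusted p of 0.0401. The gene had 36.1 and 39.6 in DMSO and 32.9, 35.9 and 29.8 in PKC412 in ZR75-1, all below DMSO, with a log2 fold change of -0.20 (SE 0.12, adjusted p = 0.562). The call in MDA-MB-468 was lost in 8 of the 10 fits without 1 sample, all but those without PKC412 sample 2 or 3 of ZR75-1 (adjusted p up to 0.211), and with samples rescaled by median ratios (adjusted p = 0.192). NFKBIZ, a second nuclear IkappaB that is induced by interleukins, was between 0.973 and 5.22 FPKM, and its DMSO samples in ZR75-1 stood at 1.04 and 4.39 and overlapped the treated ones.

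**Figure D2:**
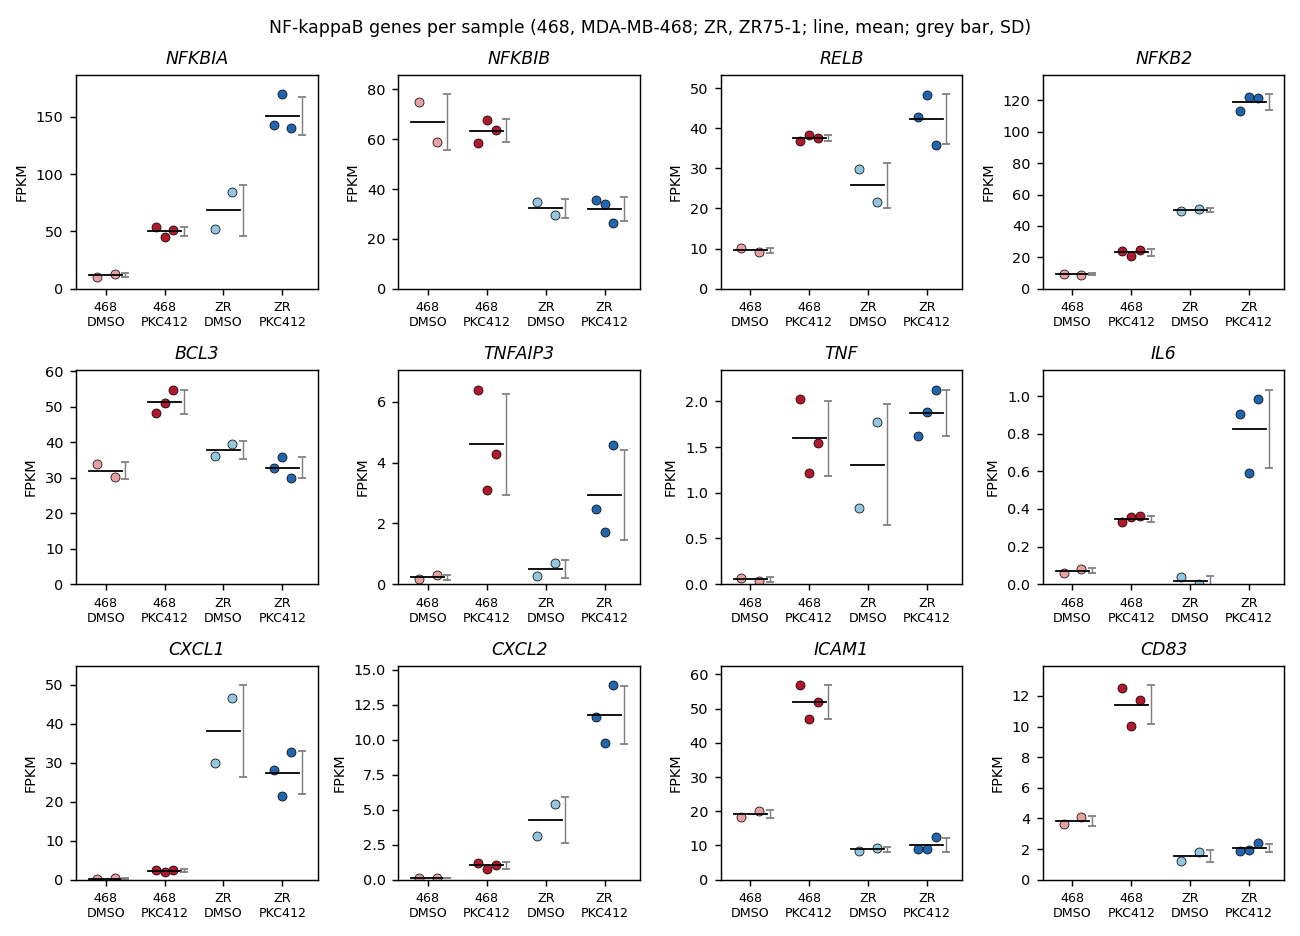
FPKM (vertical axis, from 0) of 12 NF-kappaB genes in every sample by line and treatment, 2 DMSO and 3 PKC412 samples per line, with the mean as a black line and the SD as a grey bar. RELB and NFKBIA in MDA-MB-468 show PKC412 samples at 36.9 to 38.4 and 45.1 to 53.6, above DMSO samples at 9.09 to 10.0 and 10.4 to 12.8, while the NFKBIB samples of a line overlap.

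Of the 8 genes for feedback and survival proteins, 1 passed the test in MDA-MB-468 (12.5%, against 0.691% of all genes called higher). In ZR75-1, 0 did (0.747% of all genes). There TNFAIP3, TNIP1, TRAF1 and IER3 were higher at an unadjusted p under 0.05 (50%, against 8.05% of all genes). TNFAIP3 encodes A20, the ubiquitin-editing enzyme that shuts the pathway off. It had FPKM values of 0.163 and 0.285 in DMSO and 6.41, 3.09 and 4.29 in PKC412 in MDA-MB-468. TNFAIP3 in ZR75-1 had 0.282 and 0.707 in DMSO and 2.48, 1.72 and 4.58 in PKC412. It was thus low in solvent and higher in every treated sample of both lines, with a mean FPKM 20.6 times that of solvent in MDA-MB-468 and 5.92 times in ZR75-1. On the log2(FPKM + 1) scale the change was 2.15 (SE 0.34, adjusted p = 0.0287) in MDA-MB-468 and 1.34 (SE 0.34, adjusted p = 0.186) in ZR75-1. The call in MDA-MB-468 was kept in 3 of the 10 fits without 1 sample, those without PKC412 sample 2 of MDA-MB-468 or without PKC412 sample 2 or 3 of ZR75-1, and the adjusted p was up to 0.247 in the others.

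BIRC3 encodes cIAP2, a ubiquitin ligase that protects cells from death by tumour necrosis factor. It had 1.13 and 1.49 FPKM in DMSO and 8.2, 5.20 and 6.25 in PKC412 in MDA-MB-468, a ratio of 4.99. The ZR75-1 values were 3.99 and 6.17 in DMSO and 9.55, 1.18 and 13.3 in PKC412, so that the second treated sample lay below both solvent samples. The log2 fold changes of BIRC3 were 1.69 (SE 0.70, adjusted p = 0.293) and 0.21 (SE 0.70, adjusted p = 0.965). TNIP1, which binds A20, and TNFAIP2, a gene induced by tumour necrosis factor, were just outside the threshold in MDA-MB-468. TNIP1 had 40.0 and 36.8 FPKM in DMSO and 52.1 to 58.1 in PKC412 there (log2 fold change 0.52, SE 0.10, adjusted p = 0.053). TNFAIP2 had 18.0 and 22.1 in DMSO and 38.8 to 51.2 in PKC412 (log2 fold change 1.17, SE 0.22, adjusted p = 0.0557), whereas in ZR75-1 its groups overlapped, at 42.5 and 54.8 against 33.2 to 53.9.

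SOD2, the mitochondrial superoxide dismutase, had 40.2 and 46.5 FPKM in DMSO and 58.0 to 74.1 in PKC412 in MDA-MB-468 (log2 fold change 0.57, adjusted p = 0.135) and 68.6 to 83.9 over all 5 samples of ZR75-1. IER3, an early-response survival gene and the most abundant of the set, was at 167 to 219 in all MDA-MB-468 samples. In ZR75-1 it was at 193 and 190 in DMSO and 242 to 328 in PKC412, and its log2 fold change was 0.59 (SE 0.15, adjusted p = 0.178). TRAF1 and BCL2A1, an adaptor and a BCL2 relative, reached at most 0.481 and 0.811 FPKM in any sample. The 50-base windows of BCL2A1 occur in part (4.88%) in another gene.

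Of the 8 chemokines, 7 reached 3-fold in MDA-MB-468 (87.5%, against 6.14% of all genes). Among these, CCL2 and CXCL3 had DMSO means below 0.1 FPKM and count only through their PKC412 means. The test was passed by 1 chemokine in each line, CXCL1 in MDA-MB-468 and CXCL2 in ZR75-1 (12.5% each, against 0.691% and 0.747% of all genes). CXCL1, which attracts neutrophils through CXCR2, had 0.136 and 0.352 FPKM in DMSO and 2.43, 1.96 and 2.56 in PKC412 in MDA-MB-468, with a log2 fold change of 1.42 (SE 0.24, adjusted p = 0.0356). The call was lost without any of 5 samples, namely both DMSO samples and PKC412 samples 1 and 3 of MDA-MB-468 and PKC412 sample 1 of ZR75-1, each left out alone (adjusted p up to 0.289). CXCL1 in ZR75-1 had 29.8 and 46.5 in DMSO and 28.1, 21.6 and 32.7 in PKC412, an overlap, with a log2 fold change of -0.45 (SE 0.24, adjusted p = 0.535). CXCL2, its neighbour with the same kappaB letters, behaved otherwise in ZR75-1. It had 3.08 and 5.42 in DMSO and 11.6, 9.79 and 13.9 in PKC412 there, and its log2 fold change of 1.31 (SE 0.23) passed at an adjusted p of 0.0484. In MDA-MB-468, CXCL2 had 0.0935 and 0.113 in DMSO and 1.22, 0.786 and 1.04 in PKC412, a ratio of 9.81 and a log2 fold change of 0.86 (SE 0.23, adjusted p = 0.154, and 0.0154 with a pseudocount of 0.1). The call of CXCL2 in ZR75-1 held in 2 of the 10 fits without 1 sample, those without DMSO sample 2 or PKC412 sample 2 of that line (adjusted p up to 0.296 in the others), and not with a pseudocount of 0.1 (adjusted p = 0.082).

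The transcripts of these neighbours are alike, since 5.73% of the 50-base windows of CXCL1, 9.24% of those of CXCL2 and 5.26% of those of CXCL3 occur in another gene, so their FPKM are uncertain to that extent. CXCL3, the third of the cluster, had 0.0767 and 0 in DMSO and 0.673 to 1.01 in PKC412 in MDA-MB-468. CXCL3 in ZR75-1 had 0.676 and 2.54 in DMSO and 1.99 to 3.66 in PKC412, an overlap, and neither change passed (adjusted p = 0.271 and 0.466).

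IL8 (CXCL8), the classical neutrophil chemokine, had 0.129 and 0.140 FPKM in DMSO and 11.1, 5.62 and 7.43 in PKC412 in MDA-MB-468, a ratio of 60.0. CXCL10, a chemokine for T cells that interferon also induces, had 0.0681 and 0.196 in DMSO and 9.75, 3.79 and 7.03 in PKC412, a ratio of 51.9. CCL20, which attracts cells through CCR6, had 0.260 and 0.283 in DMSO and 6.91, 3.71 and 4.86 in PKC412, a ratio of 19.0. Each treated sample of MDA-MB-468 was above both solvent samples for all 3 genes, and none of the 3 passed the test. The log2 fold changes there were 2.95 for IL8 (SE 0.63, adjusted p = 0.0814), 2.72 for CXCL10 (SE 0.58, adjusted p = 0.083) and 2.24 for CCL20 (SE 0.49, adjusted p = 0.0882). With a pseudocount of 0.1 in place of 1 all 3 passed by limma, at adjusted p of 0.0452, 0.0301 and 0.0213.

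In ZR75-1 the 2 solvent samples differed widely for these genes. IL8 was 0.619 in the first and 6.12 in the second, and 4.36, 2.28 and 7.83 in PKC412. CXCL10 was 1.51 and 7.05 in DMSO and 7.04, 3.13 and 9.91 in PKC412. CCL20 was 9.49 and 25.9 in DMSO and 19.9, 9.28 and 25.2 in PKC412. The treated samples lay within or near the range of the solvent samples, and the log2 fold changes were 0.66, 0.66 and 0.08 with standard errors of 0.63, 0.58 and 0.49. All groups share 1 estimate of the spread, so this distance between solvent samples also enters the test in MDA-MB-468. CCL2, a monocyte chemokine, was at 0 in both DMSO samples and at 0.0549 to 0.241 in PKC412 in MDA-MB-468, and at 16.7 to 51.5 in ZR75-1 with overlapping groups. CCL5, which attracts T cells and monocytes, was at 0.273 to 0.757 in MDA-MB-468 and 3.47 to 7.18 in ZR75-1, with a log2 fold change of 0.22 in each line.

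Among the cytokines, TNF and IL6 passed in different lines. TNF, both an activator and a target of the pathway, had 0.0726 and 0.0322 FPKM in DMSO and 2.02, 1.21 and 1.54 in PKC412 in MDA-MB-468, a ratio of 30.4 and a log2 fold change of 1.29 (SE 0.20, adjusted p = 0.0271). TNF in ZR75-1 had 0.836 and 1.77 in DMSO and 1.62, 1.88 and 2.12 in PKC412, and its log2 fold change was 0.35 (SE 0.20, adjusted p = 0.573). The treated samples of MDA-MB-468 reached values that overlapped the solvent values of ZR75-1. Its call in MDA-MB-468 held in 5 of the 10 fits without 1 sample, and was lost without either DMSO sample or PKC412 sample 1 or 3 of that line or PKC412 sample 1 of ZR75-1 (adjusted p up to 0.201).

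IL6, an inflammatory cytokine that signals through STAT3, had 0.0361 and 0 FPKM in DMSO and 0.905, 0.589 and 0.984 in PKC412 in ZR75-1. Its log2 fold change there was 0.84 (SE 0.09, adjusted p = 0.0065), at levels that stayed below 1 FPKM, and the adjusted p was 0.0512 without the first DMSO sample. In MDA-MB-468 it had 0.0619 and 0.0797 in DMSO and 0.330, 0.355 and 0.361 in PKC412, a ratio of 4.92 and a log2 fold change of 0.33 (SE 0.09, adjusted p = 0.162). IL6 was higher in all treated samples of both lines. LTB, a subunit of the lymphotoxin that signals into the slower branch, had 0.154 and 0.224 in DMSO and 1.76, 2.21 and 2.84 in PKC412 in MDA-MB-468 (log2 fold change 1.45, SE 0.27, adjusted p = 0.0535, and 0.0154 with a pseudocount of 0.1). In ZR75-1, LTB had 4.29 and 2.08 in DMSO and 3.22, 3.01 and 1.89 in PKC412, and the groups overlapped (log2 fold change -0.14, SE 0.27).

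CSF1, the macrophage growth factor, had 7.09 and 7.68 FPKM in DMSO and 5.40 to 6.61 in PKC412 in MDA-MB-468, the only gene of the 35 whose treated samples were all below solvent there, with a log2 fold change of -0.30 (SE 0.18, adjusted p = 0.375). CSF2, the granulocyte and macrophage growth factor, was at 0.0751 to 0.397 in MDA-MB-468 (log2 fold change 0.25, adjusted p = 0.0855) and at most 0.0392 in ZR75-1. IL1A did not exceed 0.0135 in any sample. IL1B was at 0.0170 and 0.0325 in DMSO and 0.0484 to 0.0570 in PKC412 in MDA-MB-468 and at 0 in all samples of ZR75-1.

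At the cell surface, ICAM1 and CD83 rose in MDA-MB-468. ICAM1, the adhesion molecule that leukocyte integrins bind, had 18.3 and 20.0 FPKM in DMSO and 56.9, 46.8 and 51.8 in PKC412, and its log2 fold change was 1.39 (SE 0.16, adjusted p = 0.00772). ICAM1 in ZR75-1 had 8.39 and 9.25 in DMSO and 8.90, 8.89 and 12.4 in PKC412, and its log2 fold change was 0.16 (SE 0.16, adjusted p = 0.775). CD83, an immunoglobulin-like molecule best known from mature dendritic cells, had 3.61 and 4.08 in DMSO and 12.5, 10.0 and 11.7 in PKC412 in MDA-MB-468 (log2 fold change 1.36, SE 0.17, adjusted p = 0.00984). In ZR75-1, CD83 had 1.53 ± 0.409 (SD, n = 2) in DMSO and 1.89, 1.96 and 2.39 in PKC412, all above solvent (log2 fold change 0.29, SE 0.17, adjusted p = 0.574). Without the first or the second DMSO sample of MDA-MB-468 the adjusted p of ICAM1 was 0.0831 or 0.0521 and that of CD83 0.110 or 0.0635, and CD83 was also lost without PKC412 sample 1 or 3 of that line (adjusted p = 0.0517 and 0.0619).

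SDC4, a heparan sulphate proteoglycan, had 56.8 and 53.8 FPKM in DMSO and 76.8, 66.1 and 72.0 in PKC412 in MDA-MB-468, and 163 and 154 in DMSO and 121, 115 and 138 in PKC412 in ZR75-1. Its log2 fold change was 0.36 in the first line and -0.35 in the second (SE 0.11 each), and neither passed (adjusted p = 0.203 and 0.296). MMP9, a gelatinase, was at 0.191 to 0.342 in MDA-MB-468 and 1.00 to 2.45 in ZR75-1 with overlapping groups in both. PTGS2, the inducible prostaglandin synthase, was the gene listed at 0 throughout.

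Set side by side, the log2 fold change was above 0 in both lines for 25 of the 35 genes, above 0 in MDA-MB-468 and below 0 in ZR75-1 for 8, and below 0 in both for 2. It was larger in MDA-MB-468 for 28 of 35 (80.0%), and for 55.4% of all genes. The difference between the lines, tested in the same limma fit as an interaction, passed for 0 of the 35 genes. Over all genes it passed for 0.0684% with the larger response in MDA-MB-468 and for 0.199% with the larger response in ZR75-1. At an unadjusted p under 0.05 there were 17 of the 35. The response was larger in MDA-MB-468 for 16 of them (45.7%, against 3.32% of all genes) and in ZR75-1 for 1, IL6 (2.86%, against 3.73%). The lowest adjusted p was 0.0994, for CXCL1, whose responses differed by 1.86 (SE 0.33). ICAM1 followed with 1.23 (SE 0.23, adjusted p = 0.103), BCL3 with 0.87 (SE 0.16, adjusted p = 0.107) and RELB with 1.17 (SE 0.23, adjusted p = 0.125). The 9 and 4 genes called within the lines are not shown to differ in response between them. With samples of a line rescaled by median ratios, ICAM1 (adjusted p = 0.0341) and CXCL1 (adjusted p = 0.0258) passed.

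The lines already differed in solvent. Of the 35 genes, 17 (48.6%) were higher in ZR75-1 and 5 were higher in MDA-MB-468 at an adjusted p under 0.05, against 15.9% and 26.5% of all genes. The median log2 difference, MDA-MB-468 minus ZR75-1, was -0.80 for these genes and 0.11 for all genes. Of the 8 chemokines, 7 passed as higher in ZR75-1. IL8 did not pass, although its mean FPKM was 3.37 in ZR75-1 and 0.134 in MDA-MB-468 (log2 difference -1.58, SE 0.69, adjusted p = 0.103). The mean FPKM of CXCL1 was 38.1 ± 11.8 (SD, n = 2) in ZR75-1 and 0.244 ± 0.153 (SD, n = 2) in MDA-MB-468, that of CCL20 was 17.7 ± 11.6 and 0.272 ± 0.0163, and CCL2, at 36.5 ± 21.1 in ZR75-1, was listed at 0 in MDA-MB-468. NFKBIA was 5.89 times and NFKB2 5.51 times as high in ZR75-1, with log2 differences of -2.43 (SE 0.22, adjusted p = 5.48e-05) and -2.34 (SE 0.11, adjusted p = 2.13e-06). The other genes higher in ZR75-1 were RELB, TNFAIP2, TNIP1, SOD2, CXCL2, CXCL3, CXCL10, CCL5, TNF, LTB, SDC4 and MMP9.

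The 5 genes higher in MDA-MB-468 were RELA, NFKBIB, ICAM1, CSF1 and CD83. RELA was at 41.9 ± 0.386 FPKM in MDA-MB-468 and 20.6 ± 0.479 in ZR75-1 (SD, n = 2 each), a log2 difference of 0.99 (SE 0.10, adjusted p = 0.00012), and NFKBIB was 2.08 times as high. These comparisons share the DMSO samples with those of the responses. As values side by side, CXCL1 and CCL20 in PKC412-treated MDA-MB-468, at 1.96 to 2.56 and 3.71 to 6.91, stayed below both solvent samples of ZR75-1, RELB at 36.9 to 38.4 lay above both (29.8 and 21.7), and IL8 and CXCL10 overlapped them.

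**Figure D3:**
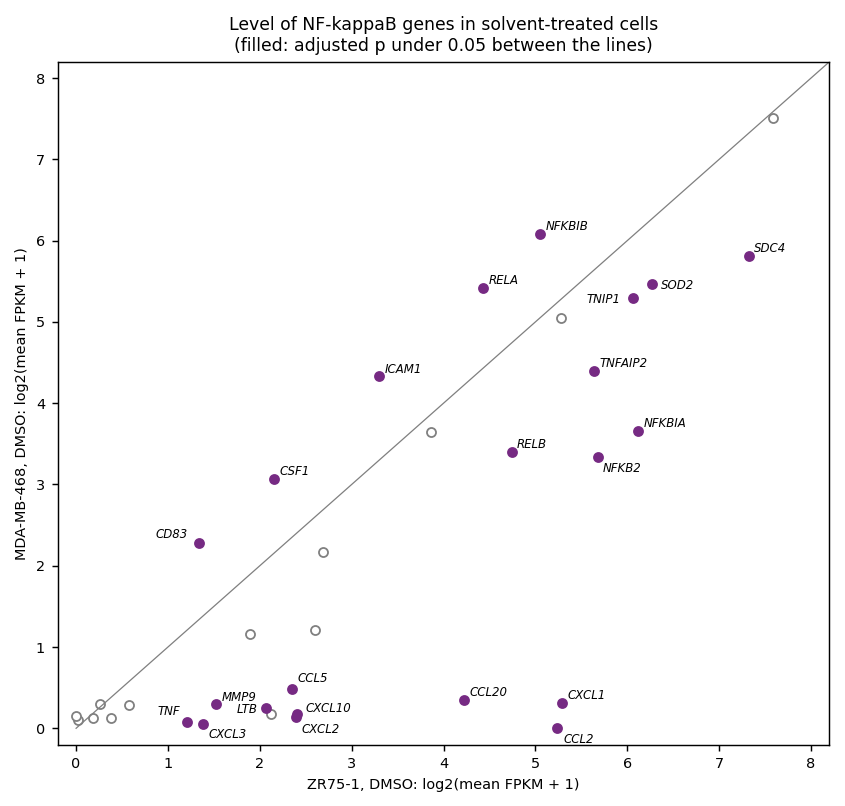
Log2(mean FPKM + 1) of the 35 tested NF-kappaB genes in DMSO, ZR75-1 on the horizontal and MDA-MB-468 on the vertical axis, each point a gene and the line marking equal levels; filled and named genes have an adjusted p under 0.05 between the lines. The 17 filled genes below the line include 7 chemokines, and the 5 above it are RELA, NFKBIB, ICAM1, CSF1 and CD83.

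The spread between replicates ran along the base composition of the transcripts. For each sample, the slope of the log2 deviation of genes from their line mean against GC content (longest protein-coding transcript, or longest of any kind, in GENCODE 29) was 0.373 and 0.0571 log2 units per 10 percentage points in the DMSO samples of MDA-MB-468 and -0.286, -0.0248 and -0.119 in PKC412. In ZR75-1 it was 0.315 and -0.191 in DMSO and -0.107, 0.339 and -0.357 in PKC412. In MDA-MB-468 the slopes therefore move with the treatment, and the part of GC content in the treatment effect cannot be told apart there. Across the 35 genes, the log2 difference between the 2 DMSO samples of ZR75-1 had a Pearson correlation with GC content of -0.68 (Spearman -0.635), and that of MDA-MB-468 one of -0.409 (Spearman -0.42); the genes share libraries, so these are descriptions. IL8 (33.4% GC) was 9.89 times, CXCL10 (37.5%) 4.65 times and NFKBIZ (46.2%) 4.22 times as high in the second DMSO sample of ZR75-1 as in the first, and LTB (64.4%) was 0.484 times. The log2 fold change itself correlated with GC content at -0.323 (Pearson, 35 genes) for MDA-MB-468 and at -0.107 for ZR75-1. The median GC content of the 38 genes, 49.8%, was near that of all genes tested, 49.9%.

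When FPKM were adjusted per sample for GC content and transcript length, more of these genes passed the test. In MDA-MB-468, 19 of 35 genes (54.3%) were then higher and 0 lower, against 2.08% and 1.67% of all genes. The 9 genes called before were among them, and those added were IL8, CXCL10, CCL20, CXCL2, LTB, IL6, CSF2, TNIP1, TNFAIP2 and IER3. IL8 went from a log2 fold change of 2.95 (SE 0.63) to 2.67 (SE 0.37, adjusted p = 0.00818), and CCL20 from 2.24 (SE 0.49) to 2.07 (SE 0.24, adjusted p = 0.00339). BIRC3 moved most, from 1.69 to 1.06 (SE 0.38, adjusted p = 0.176), and NFKB1 went from 1.16 to 0.88 (SE 0.19, adjusted p = 0.0516).

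In ZR75-1, 7 genes passed after the adjustment, against 1.83% of all genes higher and 1.16% lower. They were the 4 called before with TNFAIP3, RELB and IER3. IL8, CXCL10 and CCL20 remained outside the threshold there (adjusted p = 0.306, 0.321 and 0.615). For 7 genes the responses of the lines now differed at an adjusted p under 0.05. The response was larger in MDA-MB-468 for RELB (1.30, SE 0.11), CXCL1 (1.81, SE 0.20), CCL20 (adjusted p = 0.0498), ICAM1 (1.33, SE 0.16), LTB (1.54, SE 0.23) and CD83 (0.92, SE 0.15), against 0.548% of all genes. It was larger in ZR75-1 for IL6 (-0.51, SE 0.06), against 0.835%. The adjustment may also remove an effect of PKC412 that itself runs along GC content.

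**Figure D4:**
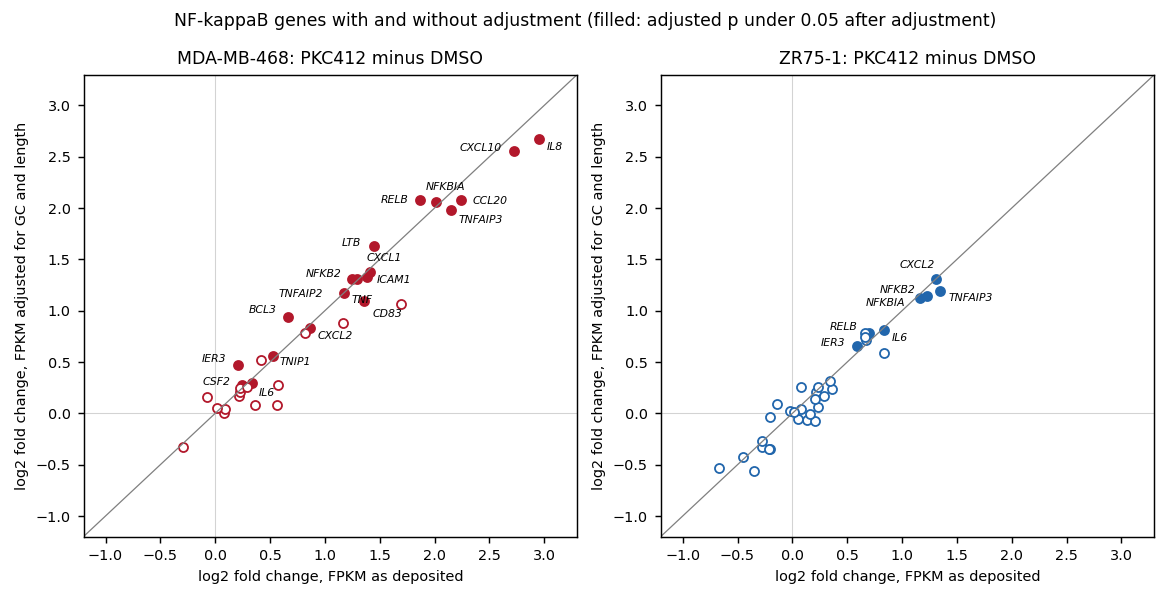
Log2 fold change of the 35 tested NF-kappaB genes before (horizontal) and after (vertical) the adjustment for GC content and length, MDA-MB-468 left and ZR75-1 right; the line marks equal values and filled, named genes have an adjusted p under 0.05 after adjustment. In MDA-MB-468, 19 genes are filled and in ZR75-1, 7, and most points lie near the line.

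From a list of 38 receptors, adaptors, kinases and ubiquitin enzymes that carry or damp the signal to NF-kappaB, 37 were tested, all but CD40. Of these, 1 (2.7%) was higher in MDA-MB-468 and 0 in ZR75-1, against 0.691% and 0.747% of all genes, and 0 were lower in either line. The gene that passed by limma was IKBKE, an IKK relative that also serves the interferon response. At an unadjusted p under 0.05, 4 were higher and 1 lower in MDA-MB-468 (10.8% and 2.7%, against 11.1% and 5.25% of all genes), and 3 higher and 3 lower in ZR75-1 (8.11% each, against 8.05% and 3.12%). IKBKE had 4.71 and 4.91 FPKM in DMSO and 8.87, 8.42 and 9.68 in PKC412 in MDA-MB-468 (log2 fold change 0.78, SE 0.12, adjusted p = 0.0231). IKBKE in ZR75-1 had 42.1 and 34.7 in DMSO and 30.2, 32.3 and 31.6 in PKC412 (log2 fold change -0.28, SE 0.12, adjusted p = 0.432), all below solvent. The difference of the IKBKE response, 1.06 (SE 0.17), had an adjusted p of 0.0641. For the difference 0 of the 37 genes passed, against 0.0684% (larger in MDA-MB-468) and 0.199% (larger in ZR75-1) of all genes. At an unadjusted p under 0.05 there were 6. The response was larger in MDA-MB-468 for 2 of them (5.41%, against 3.32% of all genes) and in ZR75-1 for 4 (10.8%, against 3.73%). For the 37 genes, the median log2 fold change was 0.32 for MDA-MB-468 and 0.09 for ZR75-1.

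The core kinases of the pathway showed no called change in either line. The catalytic subunits CHUK and IKBKB and the scaffold IKBKG had log2 fold changes of 0.40 (SE 0.43), 0.36 (SE 0.19) and -0.26 (SE 0.13) in MDA-MB-468. MAP3K14, the kinase of the slower branch, had 2.18 and 2.20 FPKM in DMSO and 1.06, 1.25 and 1.102 in PKC412 there, all below solvent, and missed the threshold (log2 fold change -0.58, SE 0.11, adjusted p = 0.0602). In ZR75-1 it was at 1.06 to 1.37 in all samples. A 3-fold ratio was reached in MDA-MB-468 by 4 of 36 (11.1%, against 6.14% of all genes), LTBR, IL1RAP, TLR3 and BIRC2, none of which passed the test, and in ZR75-1 by 0 of 37 (3.15% of all genes). In solvent, 6 of the 37 (16.2%, against 26.5% of all genes) were higher in MDA-MB-468, among them IRAK1 and IKBKG, and 8 (21.6%, against 15.9%) were higher in ZR75-1, among them the receptor TNFRSF1A and IKBKE.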

How the data were processed

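The authors deposited FPKM values per gene symbol, 1 table per sample, with no counts. They sequenced Truseq libraries on an Illumina HiSeq and computed FPKM with an in-house pipeline; the submitters' processing notes name CASAVA 1.82, TopHat2 and hg19, and the annotation and any filter are not given in the sources used here. Groups came from the sample labels. limma 3.58.1 in R 4.3.3 was fitted to log2(FPKM + 1) with 1 mean for each of 4 groups (6 residual degrees of freedom, eBayes with a trend), which understates changes of low genes. The fit was tested on simulated data with independent noise for each gene and sample. Those data held no shift of a whole sample along GC content, so they do not check the calls against it. GC content and length came from GENCODE 29 (GRCh38), matched by symbol for 93.6% of genes, and for all 38 genes; the adjustment divided out polynomials of degree 3 fitted per sample. Python 3.11.15 served for the rest. Genes with an adjusted p under 0.05 or a 3-fold ratio with a mean above 1 FPKM were named with all their values, together with the subunits and NFKBIA, NFKBIB and NFKBIE. The genes and lists were chosen with earlier results of these data known. Alternatives covered pseudocounts, filters, rescaling, fits of 1 line, the replicate block, GC content and each sample left out. Of the lists used to check the lines, 1 marker gene is not reported here.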

Additional observations from a re-analysis of the deposited data

Results flagged for a closer look

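BCL3 and SDC4 stood out because every PKC412 sample lay above every DMSO sample in MDA-MB-468 and below every one in ZR75-1. The response of BCL3 in MDA-MB-468 exceeded that in ZR75-1 by 0.865 on the log2 scale (limma interaction, adjusted p = 0.107), and that of SDC4 by 0.714 (adjusted p = 0.187). Neither difference passed the threshold. After adjustment for GC content and length, the differences were 0.98 (adjusted p = 0.0778) for BCL3 and 0.64 (adjusted p = 0.392) for SDC4, whose PKC412 change in MDA-MB-468 was then 0.08.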

How the results depend on the processing

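The counts of NF-kappaB genes called depended on single samples and on GC content. In MDA-MB-468 the main count of 9 was 13 with a pseudocount of 0.1 (IL8, CXCL10, CCL20, CXCL2 and LTB gained, BCL3 lost), 19 with FPKM adjusted for GC content and length, and 3 to 12 when 1 sample was left out (3 without either DMSO sample of that line, 4 without its PKC412 sample 1 or 3, 5 without PKC412 sample 1 of ZR75-1). In ZR75-1 the count of 4 was 2 with a pseudocount of 0.1, 2 without a filter, 7 with the GC adjustment, 0 in a fit of that line alone, and 1 to 4 when 1 sample was left out (1 without its DMSO sample 1). For the difference between the lines, the count of 0 was 2 with median-ratio rescaling, 7 with the GC adjustment, and 0 to 1 when 1 sample was left out (IL6 without PKC412 sample 2 of ZR75-1, ICAM1 without its sample 3). The solvent comparison gave 20 to 24 under every alternative run, main 22. Counts at 3-fold were 7 with a pseudocount of 1 in MDA-MB-468 and 14 to 18 without 1 sample (main 15). In ZR75-1 (main 2) they were 1 with a mean above 1, 1 with a mean above 0.1 in both treatments, 0 with a pseudocount of 1, 5 at 2-fold, and 2 to 7 without 1 sample (7 without DMSO sample 2). Over all genes the limma counts moved as well. In MDA-MB-468, 111 genes were called higher and 91 lower in the main fit, of 16071 tested. They were 334 and 268 with the GC adjustment, 46 and 45 without its PKC412 sample 1, and 238 and 86 without sample 2. In ZR75-1 they were 120 and 32 in the main fit, 293 and 186 with the GC adjustment, and 9 and 3 fitted alone. The cause was not tested for any of these counts. Of the named genes, 22 of 90 results in MDA-MB-468 and 17 of 39 in ZR75-1 lost significance with their direction kept under the other alternatives, and 31 of 90 and 18 of 40 did when 1 sample was left out. The difference in CXCL2 between the lines turned from -0.44 to 0.948 with a pseudocount of 0.1, and that in NFKB2, 0.02, was -0.0436 to 0.0932 without 1 sample and below 0 in 4 of those 10 fits. Neither was near the threshold.

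When samples of a line were blocked by replicate number, 0 of the 35 NF-kappaB genes were called in MDA-MB-468, 0 in ZR75-1 and 0 for the difference, with or without the GC adjustment, and the NFKB2 difference was -0.00633. Of all 16071 genes tested, the blocked fit also called 0 higher and 0 lower for each of these contrasts. With the GC adjustment, of 16044 genes, it called 1 higher and 2 lower for MDA-MB-468, and 4 and 0 for ZR75-1. For the difference it then called 0 genes as larger for the first line and 3 as larger for the second. Calls were thus lost over nearly all genes, not only the NF-kappaB genes. The block leaves only replicates 1 and 2 of each treatment to inform the contrasts. Deviations of same-numbered samples from their group means correlated at -0.688 and -0.608 in MDA-MB-468 and 0.123 and -0.627 in ZR75-1 over 7685 genes. The deviations of the 2 DMSO samples of a line mirror each other, so the 2 correlations of a line are not separate checks. Because the spread between replicates also ran along GC content, these values cannot decide whether equal numbers pair samples. Pairing is therefore unknown, and the main fit did not use it. In the solvent comparison the block gave 24. Depth is unknown, so the counting error of low values such as those of REL or IL6 cannot be given.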
